A study of Mus musculus with 4 samples.

Results

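The comparison concerned EpRas cells transfected with control siRNA (siControl), either treated with TGF-β or left untreated. EpRas cells are mouse mammary gland epithelial cells (EpH4) that express an active H-Ras. Both groups carried active H-Ras and the control siRNA and were collected at day 4. The treated group had received 1 ng/ml TGF-β3, with the medium renewed every other day, and the untreated group had not. Formaldehyde-assisted isolation of regulatory elements followed by sequencing (FAIRE-seq) gave 1 deposited list of accessible chromatin regions per group, so no test between groups was possible and every difference below is a difference between 2 lists. The study describes its FAIRE-seq as 2 biological replicates, and how these entered each list is not given in the sources used here for these samples. Because EpRas is a cell line and its cells were measured in bulk, a region open in fewer cells and a region less open in each cell cannot be told apart.

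The lists held 22247 FAIRE-positive regions without and 28754 with TGF-β. Each was ranked by the −log10 q-value of the peak caller, and the 22247 most significant regions were kept in each, so that 6507 TGF-β regions were left out. The 44494 regions of both equal lists were compared, out of 88442 in the 4 lists of the series. A region was called shared when it overlapped a region of the other equal list by at least 1 bp. Of the TGF-β list, 6399 regions (28.8%, 95% Wilson interval 28.2 to 29.4) had no counterpart and are named TGF-β-only. Of the untreated list, 6353 regions (28.6%, interval 28.0 to 29.2) had none and are named untreated-only. The remaining 15848 TGF-β and 15894 untreated regions were shared. Intervals here and below cover counting error only, not the spread between cultures.

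FAIRE recovers the DNA that is not held by nucleosomes, which marks promoters, enhancers and insulators. TGF-β drives epithelial to mesenchymal transition (EMT) in these cells, in which junction and keratin genes are turned down and matrix, integrin and cytoskeletal genes are turned up. AP-1, the dimer of Fos and Jun proteins, binds enhancers and acts downstream of Ras. ZEB and SNAIL proteins are repressors of epithelial genes that bind the E-box CAGGTG, and CTCF is the protein of insulators and chromatin loop anchors.

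The 6 sequences printed next show what regions of both sides look like, with motifs that differed between them (AP-1, the E-box and CTCF) and others whose interval of the difference included 0 (ETS and TEAD). All are from the plus strand of mm10, centred on the summit of a region. Capitals mark exact matches, on either strand, to AP-1 (TGANTCA), the ZEB/SNAIL E-box (CAGGTG), ETS (CNGGAAGT), TEAD (GGAATGT) or the CTCF core. The first 3 are TGF-β-only regions. The one 8.61 kb downstream of the start of Mc3r (chr2:172256935-172257135, intergenic) holds a pair of AP-1 matches and an ETS match, the one in an intron of Rad51b (chr12:79504174-79504374) a TEAD match, and the one in an intron of Itga5 (chr15:103358766-103358886) a pair of AP-1 matches. The next 3 are untreated-only regions. The one in an intron of Ankrd44 (chr1:54832844-54833044) holds a CTCF and an E-box match, the one in an intron of the long noncoding gene Gm29282, with Ier5 as nearest protein-coding gene (chr1:155040379-155040579), an AP-1 match, and the one at the promoter of Cdh1 (chr8:106603206-106603326) a pair of back-to-back E-boxes. The windows at Itga5 and Cdh1 were chosen after their values were seen.
Mc3r, TGF-β-only: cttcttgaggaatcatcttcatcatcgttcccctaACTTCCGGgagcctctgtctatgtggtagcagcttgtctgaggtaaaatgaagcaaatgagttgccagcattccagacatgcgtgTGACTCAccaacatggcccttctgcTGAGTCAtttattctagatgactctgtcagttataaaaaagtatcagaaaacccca
Rad51b, TGF-β-only: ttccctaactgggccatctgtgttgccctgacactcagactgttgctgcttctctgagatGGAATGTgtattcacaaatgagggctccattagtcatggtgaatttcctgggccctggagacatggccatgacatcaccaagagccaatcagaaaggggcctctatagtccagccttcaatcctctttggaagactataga
Itga5, TGF-β-only: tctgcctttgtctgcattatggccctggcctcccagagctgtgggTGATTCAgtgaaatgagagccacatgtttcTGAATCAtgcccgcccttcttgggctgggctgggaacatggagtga
Ankrd44, untreated-only: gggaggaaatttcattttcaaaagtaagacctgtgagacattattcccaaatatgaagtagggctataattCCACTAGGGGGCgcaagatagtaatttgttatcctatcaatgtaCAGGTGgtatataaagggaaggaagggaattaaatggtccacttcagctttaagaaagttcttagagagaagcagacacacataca
Ier5, untreated-only: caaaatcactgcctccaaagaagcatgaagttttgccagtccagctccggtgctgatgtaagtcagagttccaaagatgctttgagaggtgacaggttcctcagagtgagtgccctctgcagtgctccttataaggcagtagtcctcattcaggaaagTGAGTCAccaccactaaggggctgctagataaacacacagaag
Cdh1, untreated-only: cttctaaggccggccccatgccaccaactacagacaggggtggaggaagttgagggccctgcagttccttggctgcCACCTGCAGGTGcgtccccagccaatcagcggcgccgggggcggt

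The number of fragments piled up at the summit of each region could be recovered as whole numbers from the deposited columns, and gives the depth behind each region. Over whole lists its median was 21 in untreated and 23 in TGF-β-treated cells, and the relative depth of the TGF-β library was 1.06 times that of the untreated one. The TGF-β list ended at a −log10 q of 11.2 (its last kept region had 24 fragments at 6.14-fold enrichment over background, and the first left out 19 at 7.29-fold), whereas the untreated list went down to 4.80. Accordingly, TGF-β-only regions were stronger than untreated-only regions. Their median was 22 fragments, 8.35-fold enrichment and 173 bp in width, against 18 fragments, 7.55-fold and 149 bp. Shared regions were the strongest and widest, with 28 fragments, 9.46-fold and 222 bp in the TGF-β list. Of the untreated-only regions, 2258 (35.5%) overlapped a TGF-β region left out of the equal list, and 4095 (64.5%) overlapped no TGF-β region at all.

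TGF-β-only regions lay mostly away from promoters. A region was placed at a promoter when its middle was within 2 kb of a transcription start site (TSS), and otherwise in an exon, in an intron or between genes. Promoters took 22.02% of TGF-β-only, 29.3% of untreated-only and 44.2% of shared regions. Introns took 41.5%, 34.9% and 28.1%, and intergenic sites 34.1%, 33.4% and 25.7%. Thus the share lower at promoters was higher in introns, and intergenic sites differed little between both sides. The regions farther than 50 kb from any TSS made up 12.1% of TGF-β-only, 9.62% of untreated-only and 7.31% of shared regions.

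**Figure D1:**
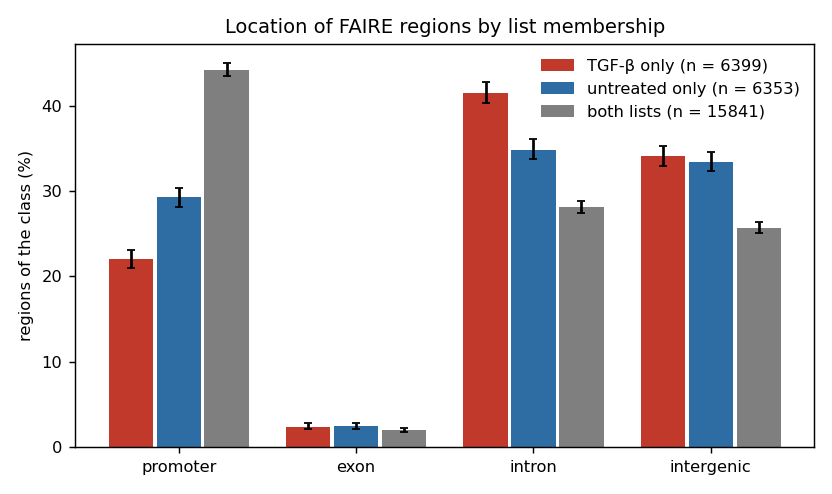
Share of regions (%, vertical axis) at promoters, in exons, in introns and between genes for TGF-β-only, untreated-only and shared regions of the TGF-β list; regions of the mitochondrial genome are left out. Bars are shares and error bars 95% Wilson intervals. Promoters hold 22.02% of TGF-β-only regions and 44.2% of shared ones, and introns 41.5% and 28.1%.

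The promoter share of TGF-β-only regions was also lower at like numbers of fragments. Among regions with 26 or more fragments it was 24.6% for TGF-β-only, 43.0% for untreated-only and 47.8% for shared regions. Among those with up to 18 fragments it was 17.2%, 23.5% and 27.8%. The promoters also differed in kind. A CpG observed-over-expected ratio of at least 0.6, the mark of CpG island promoters, was found at 45.1% of TGF-β-only promoter regions, at 54.4% of untreated-only and at 72.3% of shared ones. Of 21924 protein-coding genes, 5835 had a promoter called in both lists, 821 (3.74%) in the TGF-β list only and 1179 (5.38%) in the untreated list only. Of these, 729 and 1081 had a region in 1 list only within 2 kb of their TSS. The other 92 and 98 rested on a shared region that was nearest to different genes, or within 2 kb, in 1 list only.

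Distal regions, farther than 2 kb from any TSS, numbered 4990 TGF-β-only, 4493 untreated-only and 8837 shared. In the 300 bp centred on each summit, 28 motifs were searched on both strands. AP-1 differed most. It matched 57.9% of TGF-β-only, 33.0% of untreated-only and 58.5% of shared distal regions, and 8.84% of 78295 windows of the same length spaced evenly over the genome. The difference between both sides was 24.9 percentage points (95% Newcombe interval 22.9 to 26.8). At least 2 AP-1 matches lay in 14.9%, 5.41% and 17.2% of the regions. Over all strengths together, TGF-β-only regions were thus near the shared ones in this motif, and untreated-only regions stood apart. At like numbers of fragments, given below, this likeness did not hold.

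The ZEB/SNAIL E-box and CTCF showed the opposite order. The E-box was found in 17.7% of TGF-β-only, 26.2% of untreated-only and 21.1% of shared distal regions, beside 16.9% of the genome windows, a difference of -8.46 percentage points (-10.1 to -6.79). The CTCF core was found in 3.85%, 7.68% and 4.18%, beside 0.149% of genome windows, a difference of -3.83 percentage points (-4.79 to -2.89). The letters of the E-box can lie inside a CTCF match. Without the regions that held CTCF, the E-box shares were 16.9%, 25.5% and 20.4%, so the order was the same. Regions with an E-box and no AP-1 match made up 7.98% of TGF-β-only and 17.0% of untreated-only distal regions, and regions with AP-1 and no E-box 48.2% and 23.8%. Median GC content was close, at 46.0% and 47.0%.

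Among the 28 motifs the interval of the difference lay above 0 for 4 and below 0 for 5, and it included 0 for 19. The 4 that were more frequent with TGF-β were AP-1, RUNX (TGTGGTT), the SMAD box (CAGACA) and the p53 family motif. The SMAD box, the short element to which Smad proteins bind, was found in 30.2% of TGF-β-only and 25.9% of untreated-only regions, beside 29.1% of shared regions and 23.7% of genome windows. The SMAD palindrome GTCTAGAC was found in 0.441% and 0.378%, with an interval of the difference of -0.209 to 0.329 percentage points. RUNX was found in 12.5% and 10.8%, beside 13.3% of shared regions. RUNX and the SMAD box were thus about as frequent in shared as in TGF-β-only regions. The p53 family motif, shared by p53 and the epithelial factor p63, was found in 1.24% and 0.534%, beside 0.917% of shared regions and 1.13% of genome windows. The 5 on the untreated side were the E-box, CTCF, KLF/SP (GGGCGGG), GRHL (AACCNGTT) and FOX (TGTTTAC). GRHL factors maintain epithelial junction genes, and their motif was found in 2.34% of TGF-β-only and 3.05% of untreated-only regions, beside 2.41% of shared ones. KLF/SP was found in 3.19% and 5.14%, beside 5.08% of shared regions. FOX was found in 4.57% and 5.61%, beside 4.90% of shared regions. ETS, the family of Etv4 and Etv5, was found in 7.25% and 7.52%, with an interval of the difference of -1.33 to 0.784 percentage points. TEAD, the partner of YAP, was found in 8.28% and 8.12%, with an interval of -0.958 to 1.26.

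**Figure D2:**
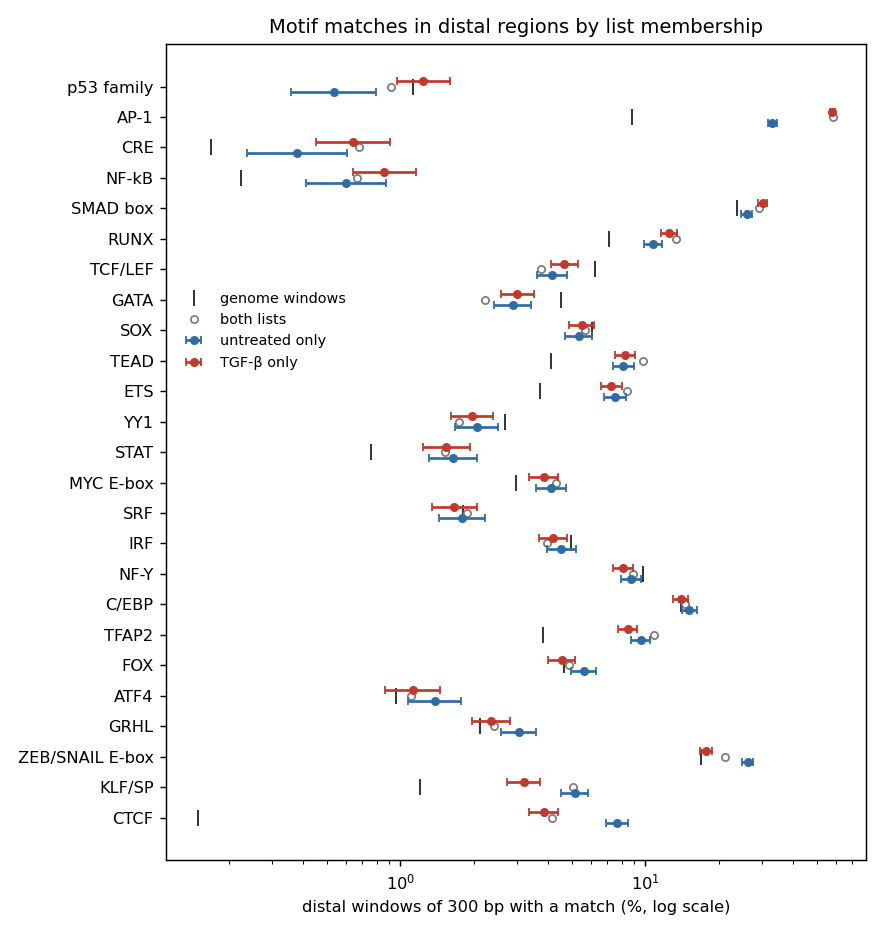
Share of 300 bp windows with a match (%, log scale) for the 25 motifs found in at least 0.5% of either side, in distal TGF-β-only (red), untreated-only (blue) and shared (open circles) regions and in genome windows (black ticks). Bars on the filled points are 95% Wilson intervals. AP-1 is shifted to the TGF-β side (57.9% against 33.0%), and CTCF (3.85% against 7.68%) and the ZEB/SNAIL E-box (17.7% against 26.2%) to the untreated side.

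The matches were placed at the summits. Within 50 bp of the summit there were 5.51 AP-1 matches per kb in TGF-β-only, 2.51 in untreated-only and 5.43 in shared distal regions, and beyond 400 bp 0.369, 0.348 and 0.343. CTCF matches were at 0.351, 0.699 and 0.367 per kb within 50 bp. The E-box behaved otherwise. At untreated-only summits it was at 1.31 per kb against 0.849 beyond 400 bp, whereas at TGF-β-only summits it was at 0.703 per kb, no higher than the 0.775 of their own flanks. Shared regions lay between, with 0.893 against 0.741.

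**Figure D3:**
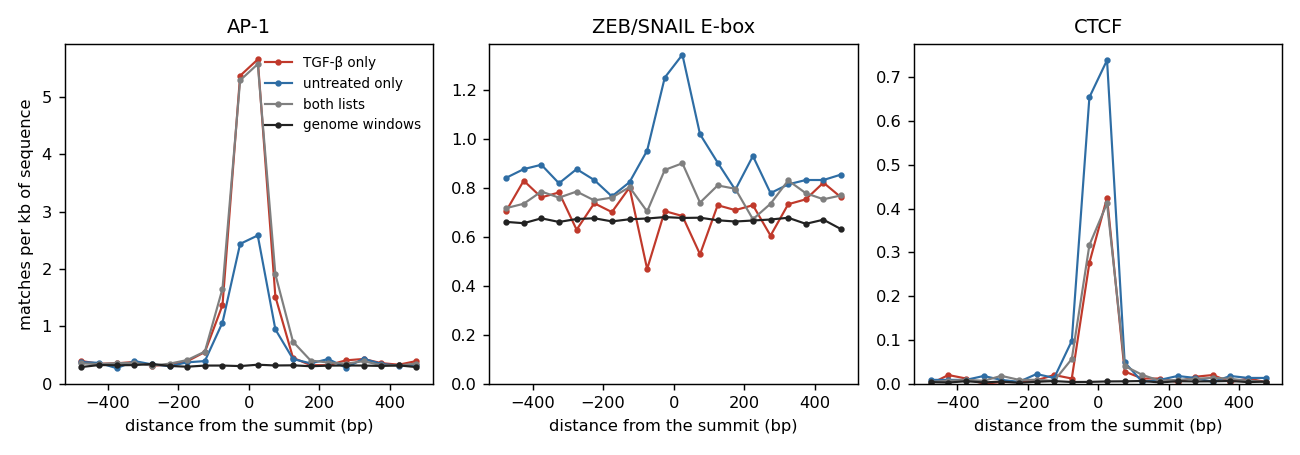
Matches per kb of sequence (vertical axis) to AP-1, the ZEB/SNAIL E-box and CTCF in bins of 50 bp by distance from the summit (bp, horizontal axis), in distal TGF-β-only, untreated-only and shared regions and in genome windows. All 3 motifs peak at untreated-only summits. The E-box has no peak at TGF-β-only summits, where it is at 0.703 matches per kb within 50 bp.

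Because AP-1 matches were more frequent in stronger regions, the motifs were compared at like numbers of fragments. In regions with up to 18, 19 to 21, 22 to 25 and 26 or more fragments, AP-1 matched 50.9%, 54.2%, 60.6% and 63.5% of TGF-β-only distal regions. In the same order it matched 32.8%, 29.7%, 36.8% and 40.4% of untreated-only ones. The gap between both sides thus stayed at each number of fragments. Significance was not matched within these classes. All TGF-β-only regions reached a −log10 q of 11.2, and 51.6% of all untreated-only regions did not. In shared regions of the TGF-β list AP-1 was at 33.3%, 44.1%, 53.4% and 66.7% in the same order. TGF-β-only regions were thus above these shared regions in every class but the strongest. Untreated-only regions were close to them in the weakest class and below them in the others. On the untreated side of the shared regions AP-1 went from 55.2% to 63.8%, above untreated-only regions in every class of fragments. The E-box was at 18.3%, 18.3%, 18.1% and 16.1% of TGF-β-only and at 25.7%, 24.5%, 28.4% and 32.5% of untreated-only regions. CTCF was at 7.29%, 4.96%, 2.97% and 1.38% of TGF-β-only and at 8.28%, 9.21%, 4.19% and 2.63% of untreated-only regions, so that it was least frequent in the strongest regions of both sides and its gap was small in the weakest.

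**Figure D4:**
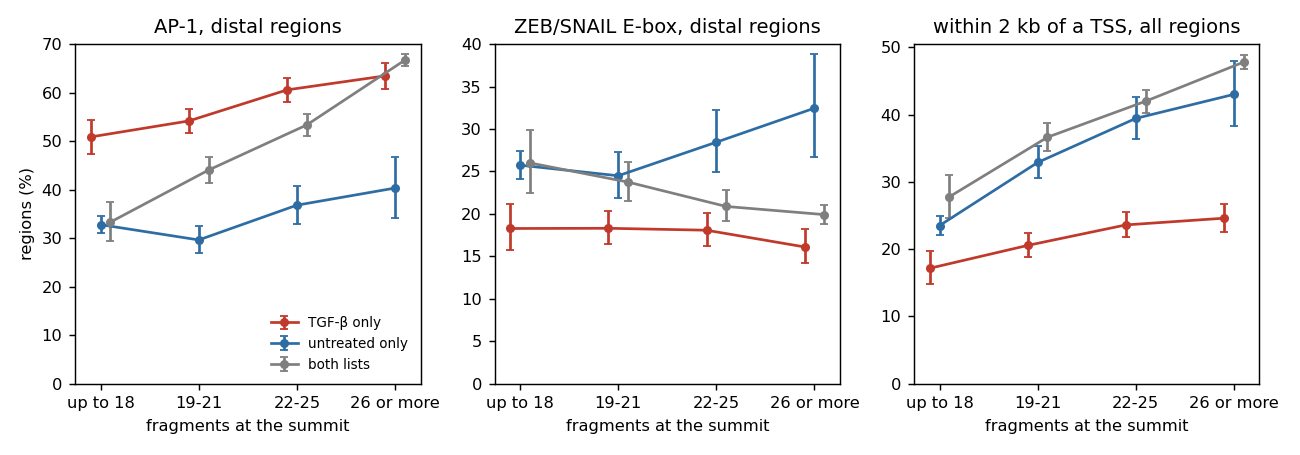
Share of regions (%, vertical axis) with an AP-1 match, with a ZEB/SNAIL E-box and within 2 kb of a TSS, by the number of fragments at the summit (horizontal axis), for TGF-β-only, untreated-only and shared regions of the TGF-β list; the first 2 panels hold distal regions. Error bars are 95% Wilson intervals. TGF-β-only regions are above untreated-only regions for AP-1 and below them for the E-box and for promoters in every class of fragments.

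The motif shares also depended on whether an untreated-only region lay in the part of the TGF-β list that was left out. Among the distal untreated-only regions with no overlap in the whole TGF-β list, AP-1 was at 25.2%, CTCF at 9.59% and the E-box at 26.9%. Among those that overlapped a weaker TGF-β region, AP-1 was at 47.6%, CTCF at 4.10% and the E-box at 24.8%. At promoter regions AP-1 was at 28.6% of TGF-β-only, 13.9% of untreated-only and 12.7% of shared regions, so that here TGF-β-only regions exceeded both other classes. Farther than 50 kb from a TSS it was at 64.6%, 39.6% and 66.3%.

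Shared regions were compared by fold enrichment. Over 15833 pairs the median log2 ratio (TGF-β over untreated) was 0.16, with the 10th percentile at -0.20 and the 90th at 0.53, and 71.1% were higher with TGF-β. Changes have to be read against this general shift. The shift depends on the cut, as pairs needed a −log10 q of at least 11.2 with TGF-β but 4.80 without. A region weaker with TGF-β could thus drop out of the shared class. With whole lists the median was 0.12. Distal pairs with an AP-1 match had a median of 0.22 and those without 0.15. Pairs with CTCF had 0.07 and those without 0.19, and the E-box made little difference (0.17 and 0.19). At least 1.5-fold higher enrichment was found at 1071 shared regions (6.76%), and at least 1.5-fold lower at 41 (0.259%). Only 33 regions were at least 2-fold higher and 0 at least 2-fold lower.

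Among shared regions with 30 or more fragments in the higher library, the highest ratio was at an intergenic region near Frg2f4, which had 15 fragments without and 45 with TGF-β (log2 ratio 1.38). The promoter of Vta1, whose product takes part in endosomal sorting, had 15 and 41 fragments (1.198). An intron of Crybg1 had 19 and 44 (1.17), and an intron of Focad, 65.8 kb upstream of the nearest TSS of that gene, 21 and 54 (1.19). The lowest ratios were mostly at promoters. The start of Nod2, a sensor of bacterial peptidoglycan, had 35 fragments without and 18 with TGF-β (-0.95). The promoter of Pdpk1, the kinase PDK1 upstream of Akt, had 40 and 20 (-0.82), and that of Glod4 32 and 19 (-0.78). Of the 6 lowest, 5 were within 2 kb of a TSS, against 2 of the 6 highest, and AP-1 matched 1 and 4 of them. Over all shared regions 44.2% were at promoters, and AP-1 matched 12.7% of shared promoter and 58.5% of shared distal regions.

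The 12 most significant TGF-β-only regions held 35 to 126 fragments. That none of these 12 overlapped an untreated region followed from the rule, because the untreated list was kept whole. AP-1 matched 8 of them, the E-box 1 and CTCF 0, and 1 was at an annotated start site, that of the microRNA gene Mir1962 inside Ptpre (39 fragments, 15.98-fold). The strongest was in an intron of Sfi1, with 126 fragments but only 5.11-fold enrichment, because its local background was 23.8 fragments. The region near Mc3r had 46 fragments at 13.7-fold, one in the Rad51b intron 45 at 12.7-fold, and one in an intron of the magnesium transporter gene Cnnm2 42 at 12.6-fold. An intergenic region had Tgfb2 as its nearest protein-coding gene, but at 250.8 kb, with 45 fragments at 12.3-fold. Of the 12, 11 were also called in TGF-β-treated cells with the first set of Etv4 and Etv5 siRNAs, and 9 with the second. Over all TGF-β-only regions with 26 or more fragments these shares were 65.0% and 34.6%. Others among the 12 were near Gm5530, AC120797.1, AC154779.1, Gm11264 and Rpl17-ps5.

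The 12 most significant untreated-only regions were weaker, with 27 to 35 fragments, and 4 overlapped a TGF-β region below the limit of the equal list. AP-1 matched 5, the E-box 5 and CTCF 1, and 6 were within 2 kb of a TSS. The first siRNA set held 7 of the 12 and the second 6, beside 55.3% and 40.5% of all untreated-only regions with 26 or more fragments. The strongest lay in an exon of Shd (30 fragments, 15.2-fold), followed by the promoter of Agap3 (35 fragments, 12.9-fold), which had 17 fragments in the part of the TGF-β list left out. The promoter of Zfp108 had 29 fragments at 14.7-fold, that of Rnasek 34 at 11.4-fold and that of Bach2, a transcriptional repressor that binds sites like those of AP-1, 34 at 11.4-fold. These 3 had no TGF-β region. The Ankrd44 intron with the CTCF match had 29 fragments at 13.9-fold, and the region with Ier5 as its nearest protein-coding gene 35 at 11.8-fold. The others were near Zfp385b, Sumf2, Gm4524, B230206H07Rik and Gm40660.

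The 8 most significant promoter regions on each side were those of Ndufa11, Wsb1, N4bp1, Arpc5, Dync2li1, Clk3, Rce1 and Pam16 with TGF-β, and of Agap3, Zfp108, Sumf2, Rnasek, Bach2, Mrfap1, Bmt2 and Hirip3 without. Ndufa11 encodes a subunit of respiratory complex I, Arpc5 a subunit of the Arp2/3 complex that branches actin filaments, and Rce1 the protease that trims prenylated proteins such as Ras. They had 38, 42 and 35 fragments with TGF-β. Of the 8 untreated promoters, 5 overlapped a TGF-β region left out of the equal list. The 8 TGF-β promoters could overlap no untreated region, because the untreated list was not cut.

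Each region was given to the nearest protein-coding TSS within 100 kb. At least 1 TGF-β-only region was given to 4049 genes (18.5% of 21924) and at least 1 untreated-only region to 4339 (19.8%). Among the 12038 genes with any region these shares were 33.6% and 36.0%. The 10 genes with the largest surplus of TGF-β-only regions were Tcim, Lingo2, Lpp, Sept9, Itga5, Hmgcll1, Tns1, Inhbb, Bach2 and Fam49b. Itga5 encodes the α5 subunit of the fibronectin receptor, Tns1 and Lpp encode adaptors of focal adhesions, Sept9 a cytoskeletal septin, and Inhbb a subunit of activin B, a ligand of the TGF-β family. Of their 54 TGF-β-only regions, 34 were in introns and 6 at promoters, AP-1 matched 40 and the E-box 9. With 10000 regions a list the surplus was 0 at Lpp and turned to -1 at Inhbb, and ranked by fold enrichment it was 0 at Sept9.

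Itga5 had 5 TGF-β-only and 0 untreated-only regions. The one in its intron, 7.94 kb downstream of the TSS, had 31 fragments at 11.8-fold, was called in both siEtv4/5 libraries (20 and 16 fragments) and carried the AP-1 pair printed above. The other Itga5 regions lay 3.93, 5.25, 11.7 and 26.9 kb upstream, with 26, 27, 32 and 22 fragments, and the first 2 also held AP-1. Tcim, a positive regulator of Wnt signalling, had 6 TGF-β-only and 0 untreated-only regions, with 21 to 33 fragments, and AP-1 matched 4 of them. Its promoter region had 33 fragments at 8.52-fold. Lpp had 6 TGF-β-only regions, all in introns and all with AP-1, and 1 untreated-only region. Inhbb had 5, between 36.2 kb upstream and 78.0 kb downstream, with 21 to 24 fragments.

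The 10 genes with the largest surplus of untreated-only regions were Cerk, Ank2, N4bp1, Map1lc3b, Ppara, Retreg1, Tmpo, Dnajb6, Rnf19a and Rpl14. Map1lc3b encodes LC3B of the autophagosome and Retreg1 a receptor for autophagy of the endoplasmic reticulum, Cerk is ceramide kinase, and Ppara is a nuclear receptor that controls fatty acid oxidation. Of their 46 untreated-only regions, 12 were at promoters and 16 in introns, AP-1 matched 14 and the E-box 19. Cerk had 5 untreated-only and 0 TGF-β-only regions with 16 to 25 fragments, 1 of them 1.65 kb from its TSS. Map1lc3b had 4 and 0, of which 2 lay at its promoter, with 23 and 18 fragments. Both of these held an E-box. Bach2 and N4bp1 were named on both sides. Bach2 had 5 TGF-β-only regions, all with AP-1, 9 shared ones and the untreated-only promoter region, and N4bp1 had 5 untreated-only regions, 1 of them 1 kb from its TSS, 4 shared ones and the TGF-β-only promoter region. With 10000 regions a list the surplus was 0 at Ank2 and Tmpo and turned to the TGF-β side at N4bp1, by 1 region. With the same significance limit in both lists, chosen after seeing the data, it was 0 at Ank2, N4bp1, Tmpo and Rnf19a.

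Epithelial genes were described by 4 lists. In these and the lists below, shares are over all listed genes, also those with no region. The share over all protein-coding genes has the same base, and that over genes with any region a narrower one. Of 26 genes of epithelial junctions and polarity, 6 had a TGF-β-only and 11 an untreated-only region (23.1% and 42.3%, beside 18.5% and 19.8% of all protein-coding genes and 33.6% and 36.0% of those with any region). The promoter was called in the untreated list only for Cdh1 (E-cadherin), Epcam, Cldn3 and Cxadr, and in the TGF-β list only for the plakophilin gene Pkp3. Of 14 laminins and other genes of the basement membrane, 4 and 7 had such regions, and the promoters of Lama3, Lamb3, Col7a1 and Agrn were called in the untreated list only. Of 18 epithelial transcription and splicing factors, 8 and 9 had one, and the promoters of Ovol1, Ovol2 and Foxa1 were on the untreated side. Of 10 keratin genes, 3 and 3 had one. The Krt7 promoter was called in the untreated list only and those of Krt19 and Krt80 in the TGF-β list only. In all, 12 promoters of these lists were called in the untreated list only and 3 in the TGF-β list only, beside 5.38% and 3.74% of all protein-coding genes. The regions at Ovol1, Lamb3, Col7a1 and Agrn overlapped a weaker TGF-β region, and those at Cdh1, Epcam, Cldn3, Cxadr, Lama3, Ovol2, Foxa1 and Krt7 overlapped none.

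At Cdh1 the promoter region (chr8:106603172-106603365, 0.082 kb upstream of the TSS) had 21 fragments at 8.10-fold and was called in the untreated list and with siEtv4/5 set 2 (21 fragments). A pair of intronic regions, 7.79 and 12.8 kb downstream, had 27 and 20 fragments without TGF-β and no TGF-β region. An intronic region 16.45 kb downstream was shared, with 27 fragments without and 33 with TGF-β, and so was one 42.1 kb upstream, with 25 and 29. Accordingly, the regions found without TGF-β only were those nearest to the TSS, while the farther ones were kept in both lists. The Epcam region was at the lowest −log10 q of the untreated list, 4.80, with 13 fragments. The splicing factor gene Esrp2 had regions of both kinds, with a TGF-β-only region 3.95 kb upstream (25 fragments) and an untreated-only region at its TSS, whose 22 fragments faced 23 in the part of the TGF-β list left out. Opposite to Cdh1, Cldn4 had 3 TGF-β-only regions, with 33, 30 and 43 fragments and each with AP-1, and no untreated-only region.

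**Figure D5:**
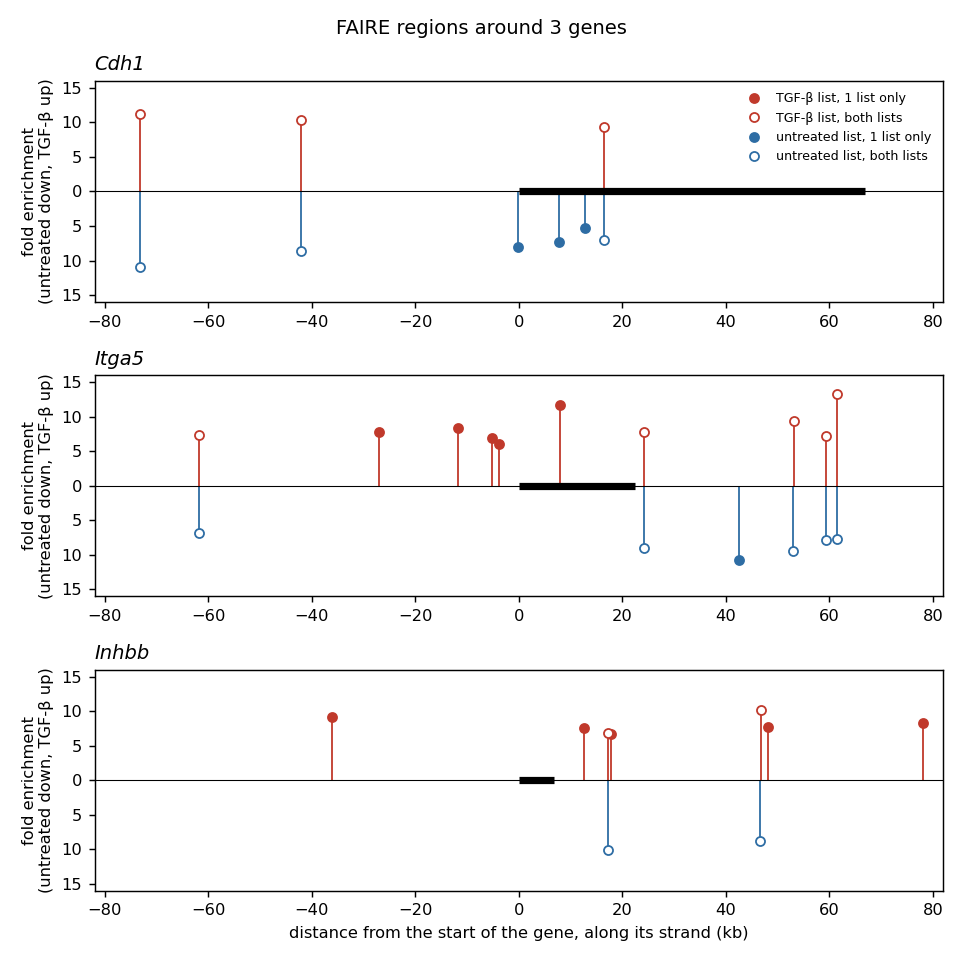
FAIRE-positive regions around Cdh1, Itga5 and Inhbb, by distance from the start of each gene along its strand (kb) and fold enrichment, with TGF-β upwards and untreated downwards. Filled points are regions in 1 equal list only, open points shared regions and black bars the genes. Cdh1 has 3 untreated-only regions at its start and in its introns, Itga5 has 5 TGF-β-only regions from 26.9 kb upstream to 7.94 kb downstream, and at Inhbb the 5 regions in 1 list only are on the TGF-β side. The untreated-only region beyond the end of Itga5 was given to Zfp385a.

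The E-box was common in the untreated-only regions of the 4 epithelial lists, a comparison chosen after its values were seen. It matched 9 of 15 such regions within 2 kb of their gene (95% interval 35.7 to 80.2%), beside 22.04% of all untreated-only promoter regions, and 15 of 29 farther away (51.7%, 34.4 to 68.6), beside 26.2% of all distal ones. Among the TGF-β-only regions of the same lists farther than 2 kb it matched 4 of 25, and AP-1 matched 14. In untreated-only regions of the mesenchymal, integrin, actin and AP-1 lists, also grouped after the values were seen, the E-box matched 3 of 6 within 2 kb and 7 of 30 farther away. The 6 regions are too few to tell both groups of lists apart near their genes. The untreated-only promoter regions of Cdh1, Epcam, Cldn3, Cxadr, Krt7 and Lama3 were among the 9 of 15 that held the E-box, and the rest of the 15 held none.

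Among EMT transcription factors, 6 of 12 genes had a TGF-β-only and 4 an untreated-only region (50.0% and 33.3%). Over all protein-coding genes the shares were 18.5% and 19.8%, and over those with any region 33.6% and 36.0%. Zeb2 and Snai2 were opposites. The Zeb2 promoter was called with TGF-β only, with 22 fragments at 9.60-fold and an AP-1 match, and that of Snai2 without TGF-β only, with 22 fragments at 7.04-fold and an E-box. Zeb1 had 2 TGF-β-only regions, 81.6 and 8.10 kb upstream with 30 and 18 fragments, both with AP-1, and its promoter was called in neither list. The Snai1 promoter was called in both lists, and 2 TGF-β-only regions 14.8 and 15.1 kb downstream had 26 and 23 fragments.

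Of 25 mesenchymal and matrix genes, 12 had a TGF-β-only and 8 an untreated-only region (48.0% and 32.0%). All protein-coding genes had 18.5% and 19.8%, and those with any region 33.6% and 36.0%. The promoters of 20 of the 25 were called in neither list, beside 64.3% of all protein-coding genes. Fbn1 (fibrillin) had 3 TGF-β-only regions 22.8, 32.8 and 41.4 kb upstream, with 24, 35 and 20 fragments. Thbs1 (thrombospondin) had 2 at its promoter, with 31 and 26 fragments, and Cdh2 (N-cadherin) 1 in an intron with 21. Vim had no region in either equal list, and at Fn1 3 regions were all shared. Integrins had the largest share on the TGF-β side of all lists, with 9 of 13 genes (69.2%), and 6 on the other (46.2%). These compare with 18.5% and 19.8% of all protein-coding genes, and 33.6% and 36.0% of those with any region. Yet promoters of Itgav, Itgb1, Itgb4 and Itgb5 were called in the untreated list only and none in the TGF-β list only. Of 23 genes of the actin cytoskeleton and cell adhesion, 10 and 10 had such regions, while the promoters of 5, among them Actb, Ezr and Pdlim7, were called with TGF-β only and 0 without only. Over all protein-coding genes, promoters called in 1 list only made up 3.74% with TGF-β and 5.38% without. One of the 5 actin list promoters, that of Rhoa, was a shared region whose untreated counterpart lay nearer to the TSS of the neighbouring gene Tcta.

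Of 12 genes of AP-1 subunits, 7 had a TGF-β-only and 4 an untreated-only region (58.3% and 33.3%). Over all protein-coding genes the shares were 18.5% and 19.8%, and over those with any region 33.6% and 36.0%. The promoters of Fosl1 and Junb were called with TGF-β only, beside 3.74% of all protein-coding genes. They had 30 and 37 fragments at 2 Fosl1 regions and 38 at Junb, and Fosl2 had 3 TGF-β-only regions with 23, 23 and 17. Jun had 1 region of each kind. In the mesenchymal, integrin, actin and AP-1 lists together, a group chosen after its values were seen, AP-1 matched 33 of 52 TGF-β-only regions farther than 2 kb (63.5%) and 9 of 30 untreated-only ones (30.0%), near the 57.9% and 33.0% of all distal regions.

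Among TGF-β signalling genes, 8 of 22 ligands, receptors and Smads had a TGF-β-only and 6 an untreated-only region (36.4% and 27.3%). Over all protein-coding genes the shares were 18.5% and 19.8%, and over those with any region 33.6% and 36.0%. The promoter of Tgfbr2, the type II receptor, had 2 TGF-β-only regions with 19 fragments each. Of 24 target and feedback genes, 10 and 11 had such regions (41.7% and 45.8%). Smad7, the inhibitory Smad, had 2 TGF-β-only regions 25.3 kb upstream and 76.9 kb downstream with 29 and 23 fragments, both with AP-1. Of 21 extracellular proteases and inhibitors, 9 and 7 had such regions (42.9% and 33.3%). The collagenase gene Mmp13 had an untreated-only region of 14 fragments at its TSS, and shared regions 13.8 and 32.3 kb upstream with 25 and 17 fragments without and 28 and 26 with TGF-β. A TGF-β region of 22 fragments, 8.97 kb upstream of Mmp13, overlapped no untreated region. The cut left it out at a −log10 q of 8.89, above the 6.79 of the untreated-only region.

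Of 17 growth factor receptors and their ligands, 7 had a TGF-β-only and 10 an untreated-only region (41.2% and 58.8%). All protein-coding genes had 18.5% and 19.8%, and those with any region 33.6% and 36.0%. Among the 17, the net surplus was towards TGF-β at 2 and towards untreated at 4. Erbb3 and Nrg1, a receptor and its ligand neuregulin, had 3 untreated-only and 0 TGF-β-only regions each, and the promoters of Erbb2, Erbb3, Pdgfra and Nrg1 were called without TGF-β only. In the same list 1 promoter was called with TGF-β only. Over all protein-coding genes these shares were 5.38% without and 3.74% with TGF-β only. The Erbb2 promoter and 1 of the 3 Erbb3 regions overlapped a weaker TGF-β region. Of 18 ETS factors, 9 and 7 had such regions, among them Elk3 with 4 TGF-β-only and 0 untreated-only regions, Etv5 with 2 and 2, and Etv4 with 1 in an intron (22 fragments). Runx1 had 3 and 6, in a list of 4 RUNX genes of which 2 and 3 had one. In the other lists the counts were 7 and 7 of 14 genes for the YAP and TEAD pathway, 6 and 9 of 17 for the Ras and ERK response, 9 and 7 of 20 for Wnt, 6 and 6 of 22 for the cell cycle, 10 and 9 of 17 for inflammatory and interferon genes, 6 and 8 of 15 for glycolysis, 2 and 3 of 12 for mammary luminal and milk genes and 5 and 6 of 16 for constantly expressed genes. Among the last, the Gapdh promoter was shared, with 26 fragments without and 25 with TGF-β, and a TGF-β-only region of 29 fragments lay 0.731 kb downstream of its TSS.

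The epithelial label of the cells was checked by promoters. Of 10 keratin promoters, 3 were called in both lists (Krt8, Krt14 and Krt18), 3 in 1 list only, and 4 in neither (Krt5, Krt6a, Krt15 and Krt17). Of 26 junction and polarity promoters, 8 were called in both lists and 13 in neither, beside 64.3% in neither over all protein-coding genes. Of 18 promoters of epithelial transcription and splicing factors, 8 were called in both lists and 7 in neither, among them Esrp1 and Grhl3. Of 12 promoters of mammary luminal and milk genes, 1 was called in both lists and 7 in neither. Promoters were called in neither list for 11 of 12 fibroblast and endothelial markers, 9 of 10 immune cell markers and 15 of 16 liver, neuron and erythroid markers, and the Cd68 promoter was called in both.

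The TGF-β-treated libraries with Etv4 and Etv5 siRNAs were not used in choosing the regions and serve as a further readout. The first siRNA set held 47.8% of TGF-β-only, 36.7% of untreated-only and 84.9% of shared regions, and the second 22.7%, 20.7% and 67.5%. When lists were ranked by fold enrichment, the difference between TGF-β-only and untreated-only regions went from 11.2 to 2.80 percentage points for set 1 and turned from 2.04 to -4.35 for set 2. The shares varied with strength. Among regions with up to 18 fragments, set 1 held 30.5% of TGF-β-only and 31.0% of untreated-only regions, and among those with 26 or more 65.0% and 55.3%. Set 2 held 10.9% and 16.1% of the weakest and 34.6% and 40.5% of the strongest. At like numbers of fragments it thus held a smaller share of TGF-β-only than of untreated-only regions. The siRNA sets and the length of their lists cannot be told apart. TGF-β-only distal regions called in set 1 held AP-1 in 63.3% and those not called in 52.7%, and untreated-only ones in 41.6% and 28.6%.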

How the data were processed

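FAIRE-seq libraries of EpRas cells were compared between 2 siControl groups, with 1 deposited list of regions each. The authors aligned reads with Bowtie (version not given in the sources used here) to mm10 and called peaks with MACS2 2.1.0, according to the submitters' processing notes, and every listed region had a q-value under 0.0001. The deposited narrowPeak files hold a score, the fold enrichment at the summit (a ratio to background), and the −log10 of the p-value and of the q-value. No read counts or replicate values were used here. Summit fragments were solved from fold enrichment and −log10 p with the pseudocount of 1 of the caller. All came out whole within 0.05. Replicates could not be compared, so no test was run, and p-values between groups were not computed.

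Lists were cut to 22247 regions. TSS, exons and genes were from GENCODE M21 on GRCm38, the assembly of mm10, and exact motif letters were searched in that sequence. Python 3.11.15 with pandas 2.3.3, numpy 2.4.6, scipy 1.17.1, pysam 0.24.0 and matplotlib 3.10.9 was used, and scripts were tested on simulated lists. Named were the 12 most significant regions, 8 promoters and 10 genes by surplus of regions on each side, the 6 highest and lowest shared ratios, up to 4 genes of each of 26 gene lists, the genes the study examined, and windows for printing. Other members are named where a promoter was called in 1 list only. Members and lists were chosen with earlier results of these data known. Alternatives were whole lists, lists of 10000 regions, ranking by fold enrichment, other overlap rules, gene assignments and motif windows, and, chosen after seeing the data, 1 significance limit for both lists. Some members named by these rules are not reported here.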

Additional observations from a re-analysis of the deposited data

How the results depend on the processing

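With 1 list a group, the spread between cultures is unknown, and depth limits both sides, since a region near the limit of a list can be missed by a few fragments. Of 115 alternative values of the main results 76 stayed within their limits, and only the set 2 difference changed sign. With whole lists there were 10629 TGF-β-only and 4095 untreated-only regions, the TGF-β-only minus untreated-only difference was 32.4 percentage points for AP-1 and -6.62 for CTCF, the median log2 ratio at shared regions 0.12, and the differences in regions called with siEtv4/5 sets 1 and 2 were 15.3 and 3.83. Counting as untreated-only just the 4095 regions absent from the other whole list, these differences were 32.6, -5.74, 22.5 and 8.47. With 10000 regions a list, there were 3883 and 3874 regions, the promoter difference was -14.1, CTCF -5.06, the E-box -6.45, the median ratio 0.14 and sets 1 and 2 13.5 and 7.84. Ranked by fold enrichment, promoters gave -10.05, AP-1 22.3, CTCF -2.69 and set 1 2.80, and set 2 turned to -4.35 from 2.04. With the same significance limit in both lists, chosen after seeing the data, there were 10071 and 3075 regions, AP-1 gave 31.4, CTCF -6.98, 2443 genes had an untreated-only region, the median ratio was 0.087 and sets 1 and 2 gave 16.9 and 6.70. In weaker regions AP-1 gave 18.6 and CTCF -2.62. With regions given to gene bodies or 50 kb upstream, 6138 and 6723 genes had TGF-β-only and untreated-only regions. With fragments divided by depth the median ratio was 0.18, and with siEtv4/5 lists of equal length set 1 gave 7.02. Among named genes, the surplus at Inhbb turned to -1 and that at N4bp1 to 1 with 10000 regions a list, where it was 0 at Lpp, Ank2 and Tmpo. The causes were not tested.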

Other observations

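Chromosome X stood out among the chromosomes. It held 52 TGF-β-only regions (0.813% of them) and 97 untreated-only regions (1.53%), and 0.492% of shared regions. Of all its regions, 40.0% of 130 in the TGF-β list and 55.1% of 176 in the untreated list were in 1 list only. On the autosomes these shares ranged from 23.5% (chromosome 19) to 37.6% (chromosome 14) in the TGF-β list and from 22.7% (chromosome 17) to 36.6% (chromosome 14) in the untreated list. The difference was not tested.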
